A study of Mus musculus with 57 samples.

Results

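The genes described here are 8 sterol-regulated genes of the mouse heart, chosen by symbol: the transcription factor *Srebf2*, its retention factor *Insig1*, and 6 enzymes of the cholesterol synthesis pathway, *Hmgcs1*, *Idi1*, *Fdps*, *Sqle*, *Lss* and *Dhcr7*. All 8 were found in both count tables, among 25416 genes in the acute study and 54658 genes in the chronic study. Of these, 7 passed the filter on low counts in each study and were tested, and *Fdps* did not. The list was proposed as genes of cholesterol synthesis and uptake, but none of the 8 codes for an uptake protein, so uptake genes are given below only as a separate list.

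Poly(A) RNA was sequenced from hearts of male wild-type C57BL6/J mice given doxorubicin (Doxo), an anthracycline chemotherapeutic that damages the heart, with or without NMN (beta-nicotinamide mononucleotide, a precursor of NAD+). In the acute study the groups were Ctrl (14 hearts, saline), Doxo (13 hearts, a single intraperitoneal dose of 20 mg/kg) and Doxo-NMN (13 hearts, the same dose with 180 mg/kg/day NMN by intraperitoneal injection, begun 5 days before Doxo). Those mice were bought at 9 weeks of age, and hearts were taken 5 days after Doxo and 2 hours after the last NMN injection. In the chronic study the groups were Ctrl (5 hearts, PBS), Doxo (6 hearts, 5 intraperitoneal injections of 4 mg/kg, 20 mg/kg in all) and Doxo-NMN (6 hearts, the same injections with 500 mg/kg/day NMN in the drinking water, begun 5 days before Doxo). Those mice were 14 to 16 weeks old at injection, and hearts were taken 60 days after the first injection. Every heart came from a mouse alive at collection, and neither study had a group given NMN without Doxo.

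Cholesterol is built from acetyl-CoA through mevalonate, isoprenoid diphosphates, squalene and lanosterol. When sterols in the endoplasmic reticulum run low, SREBP-2, the product of *Srebf2*, is released from its complex with SCAP and the INSIG proteins, is cleaved in the Golgi and switches on nearly every gene of the pathway together with genes of sterol uptake. When sterols are plentiful, INSIG proteins hold the complex back and oxysterols switch on genes of cholesterol export through the LXR receptors, so synthesis genes usually move as a block. In the heart, most cells both make cholesterol and take it up from lipoproteins.

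The start regions of 4 of these genes are printed, those of the regulator *Srebf2* and of the 3 enzymes on which the results turn. The sequences are from RefSeq (GRCm38.p6), which held start windows for 6 of the 8 genes (*Sqle* and *Fdps* had none), and each runs upstream of the annotated starts on the plus strand. Capitals mark the sterol response element TCACNCCAC, its shorter form TCACCCCA, or the NF-Y motif CCAAT and its complement ATTGG.
Hmgcs1, chr13:119690101-119690350: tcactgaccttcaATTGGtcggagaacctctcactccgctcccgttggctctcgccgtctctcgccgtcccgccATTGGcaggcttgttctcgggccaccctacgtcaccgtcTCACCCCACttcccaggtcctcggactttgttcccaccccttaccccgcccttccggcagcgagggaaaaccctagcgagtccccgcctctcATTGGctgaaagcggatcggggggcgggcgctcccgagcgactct
Srebf2, chr15:82147019-82147180: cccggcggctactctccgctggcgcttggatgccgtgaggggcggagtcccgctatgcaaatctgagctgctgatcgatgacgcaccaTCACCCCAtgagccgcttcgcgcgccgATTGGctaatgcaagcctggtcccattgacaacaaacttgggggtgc
Lss, chr10:76531355-76531587: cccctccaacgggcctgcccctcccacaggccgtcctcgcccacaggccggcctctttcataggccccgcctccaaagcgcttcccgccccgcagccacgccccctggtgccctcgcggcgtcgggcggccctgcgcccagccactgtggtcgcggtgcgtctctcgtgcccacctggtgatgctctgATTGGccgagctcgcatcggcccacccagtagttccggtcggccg
Dhcr7, chr7:143822917-143823144: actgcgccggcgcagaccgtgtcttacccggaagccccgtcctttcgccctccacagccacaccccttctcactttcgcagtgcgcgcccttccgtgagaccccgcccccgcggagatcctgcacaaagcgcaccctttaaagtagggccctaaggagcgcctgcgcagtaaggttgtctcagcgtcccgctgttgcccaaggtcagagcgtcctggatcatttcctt
Both strands of each window (250 bases before to 50 after the start) were searched. TCACNCCAC was found in the *Hmgcs1* window alone among the 8 windows of the 6 genes, 137 bases before the start, and in 1.24% of 32851 windows genome-wide. TCACCCCA, which overlaps it in *Hmgcs1* and was searched after the windows had been read, also lay 162 bases before the *Srebf2* start and was in 1.56% of windows. CCAAT was in 37.4% of windows, among them those of *Srebf2*, *Insig1*, *Hmgcs1*, *Idi1* and *Lss*. The first of 3 *Dhcr7* windows, the one printed, held none of the 3 capitalised motifs. Another *Dhcr7* window, starting at chr7:143829964, held 2 matches of CCAAT or its complement. A match describes letters and is not a measured binding site.

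Total counts were 32409622 to 52102850 per heart in the acute study and 17769886 to 23862287 in the chronic study, so that 3 counts, taken as the detection floor, were 0.0576 to 0.0926 CPM and 0.126 to 0.169 CPM (counts scaled to the TMM-adjusted library size). Cardiomyocyte genes were abundant in every heart (8 genes summed to at least 31652 CPM), although 2 of the 8 were called lower and 1 higher in Doxo than in Ctrl (median log2 fold change -0.30). Genes of other cell types were also called in the same comparison, where 30.1% of all genes were. Beside that share the counts of macrophage, adipocyte, endothelial and atrial genes given below do not stand out. The 5 red blood cell genes were all called lower (median sums 1114 CPM in Ctrl and 2.3 CPM in Doxo), and 5 of 5 tested neutrophil genes higher (2.6 and 16.3 CPM). Called lower were also 3 of 6 fibroblast genes (median -0.88), 3 of 8 macrophage genes (-0.31), 2 of 6 tested adipocyte genes (-1.24), 1 of 6 endothelial genes (-0.25), the 1 lymphocyte gene tested (-1.15) and 1 of 6 atrial genes (-1.88). In Doxo-NMN against Doxo, 17.1% of all genes were called. There 5 of 5 red blood cell genes (median -4.81), 3 of 5 neutrophil genes and 2 of 6 fibroblast genes were called lower. Called higher were 3 of 6 fibroblast, 2 of 8 cardiomyocyte, 2 of 6 tested adipocyte and 1 of 8 macrophage genes. In Doxo-NMN against Ctrl, 7.11% of all genes were called. There 5 of 5 red blood cell genes, 4 of 6 fibroblast genes, 1 macrophage and 1 endothelial gene were called lower and 4 of 5 neutrophil genes higher. Their part in the results below was not tested beyond the values given, and in bulk tissue fewer cells of a type and less RNA per cell cannot be told apart.

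A total of 3 hearts stood apart from their groups. Each heart was placed on an axis of 4435 genes that differed at least 1.5-fold between acute Doxo and Ctrl, the sterol genes left out, with 0 the Ctrl mean and 1 the Doxo mean. Acute Doxo replicate 6 lay at 0.0592, inside the Ctrl range of -0.0553 to 0.0662, whereas the other 12 Doxo hearts lay at 0.460 to 1.44. Its red blood cell genes summed to 338 CPM, against 1.19 to 3.85 CPM in the other Doxo hearts. Among the Doxo-NMN hearts, replicate 10 lay at 0.911 and the other 12 at 0.251 to 0.578. In the chronic study, on the 3939 of these genes tested there and with 0 the chronic Ctrl mean, Doxo replicate 2 lay at 0.667 and the other 5 Doxo hearts at 0.0491 to 0.0687. Its red blood cell genes summed to 16.2 CPM, against 183 to 355 CPM in the other chronic Doxo hearts. Results that rest on these hearts are given with and without them.

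Per kilobase of exon, the 8 genes differed widely in level in acute Ctrl hearts. *Hmgcs1* (HMG-CoA synthase, an early step on the way to mevalonate) had the highest level, 6.98 ± 0.341 CPM per kb (SD, n = 14), followed by *Insig1* with 5.95 ± 0.766 and *Srebf2* with 4.74 ± 0.523. *Dhcr7* reached 1.08 ± 0.148, *Idi1* 0.793 ± 0.151, *Sqle* 0.357 ± 0.0761 and *Lss* 0.341 ± 0.0546 CPM per kb, the last pair within each other's spread. These levels depend on the length used, all annotated exons of a gene joined (5546 bases for *Sqle*, 10787 for *Lss*). Before division by length, *Sqle* averaged 1.98 CPM and *Lss* 3.68 CPM. *Fdps* had 0.0436 ± 0.0208 CPM per kb, from 1 to 15 counts per Ctrl heart. In chronic Ctrl hearts *Srebf2* (5.97 ± 0.866), *Insig1* (5.73 ± 0.490) and *Hmgcs1* (4.61 ± 0.634, all n = 5) led in another order, with ranges that overlapped.

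Some counts may be shared with other loci, because the handling of such reads and of strand is not given in the sources used here. At 95% identity over at least 150 bases, *Fdps* had 5 near-copies of which 4 were pseudogenes, *Idi1* had 3 of which 2 were pseudogenes, and *Insig1* had 1 pseudogene. These near-copies each had a median of 0 counts in the chronic study and were not among the genes counted in the acute study. Whether reads were shared was not tested. An exon of *Fdps* was also shared on the same strand with the locus *Gm43738* over 26.7% of its exon bases. *Hmgcs1* and *Lss* each overlapped an antisense gene over 12.1% and 3.5% of their exon bases. *Idi1* overlapped the locus *Gm48574* on the opposite strand over 9.2%. *Srebf2*, *Sqle* and *Dhcr7* had no near-copy and no overlapping exon.

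The first comparison asked what a single high dose of Doxo did to these genes within 5 days. The genes did not move as a block. *Dhcr7*, the reductase that finishes cholesterol synthesis on one route, fell to 0.379 of its Ctrl mean. *Lss*, the lanosterol synthase that closes squalene oxide into the first sterol, rose 2.66-fold. *Hmgcs1*, *Sqle*, *Idi1* and *Srebf2* were lower by less than the 1.5-fold threshold, and *Insig1* did not pass the test. A gene was called when its adjusted p was under 0.05 and its change at least 1.5-fold. By that rule 2 of the 7 tested genes (*Dhcr7* and *Lss*) were called, against 30.1% of all 14240 genes tested. At adjusted p under 0.05 alone 6 of 7 passed, against 68.1% of all genes, and 5 of these were lower, against 33.3% of all genes. The median log2 fold change of the 7 was -0.32, beside 0.00 for all genes (-0.001571).

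*Srebf2* (ENSMUSG00000022463, chr15:82147181-82205379, plus strand, GRCm38), the regulator, ranged from 29.1 to 39.7 CPM in Ctrl hearts with a median of 34.9 CPM, and from 21.7 to 32.3 CPM in Doxo hearts with a median of 28.1 CPM. Of the 13 Doxo hearts, 10 were below every Ctrl heart. The means were 34.1 ± 3.76 and 27.9 ± 2.81 CPM (SD), a log2 fold change of -0.29 (SE 0.06, adjusted p = 8.46e-05, edgeR quasi-likelihood test). *Insig1* (ENSMUSG00000045294, chr5:28071363-28078662, plus strand), itself a classic SREBP-2 target and the brake on its release, ranged from 15.6 to 24.5 CPM in Ctrl and from 8.97 to 30.2 CPM in Doxo. Its Doxo hearts spread to both sides of the Ctrl range, with 4 below every Ctrl heart and 2 above. It had a log2 fold change of 0.04 (95% interval -0.20 to 0.29, adjusted p = 0.756, edgeR).

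In the mevalonate and isoprenoid steps, *Hmgcs1* (ENSMUSG00000093930, chr13:119690379-119708260, plus strand) had a narrow Ctrl range of 28.3 to 34.8 CPM with a median of 32.1 CPM, and a Doxo range of 13.4 to 35.2 CPM with a median of 20.2 CPM. There were 12 Doxo hearts below every Ctrl heart, and replicate 6 was above every Ctrl heart. The log2 fold change was -0.54 (SE 0.10, adjusted p = 2.00e-05), and without replicate 6 it was -0.61 (adjusted p = 4.98e-07, edgeR), which passed the 1.5-fold threshold and brought the called genes to 3. *Idi1* (ENSMUSG00000058258, chr13:8885501-8892451, plus strand), the isomerase that makes the reactive C5 unit, ranged from 1.76 to 3.70 CPM in Ctrl and from 1.11 to 3.08 CPM in Doxo, and only 1 Doxo heart lay below the Ctrl range. Its log2 fold change was -0.32 (SE 0.12, adjusted p = 0.0170, edgeR). *Fdps* (ENSMUSG00000059743, chr3:89093588-89101959, minus strand), which makes farnesyl diphosphate, had 1 to 22 counts in any acute heart and was not tested. Its means were 0.183 ± 0.0877 CPM in Ctrl and 0.211 ± 0.129 CPM in Doxo, with overlapping ranges.

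Among the later enzymes, *Sqle* (ENSMUSG00000022351, chr15:59315077-59331192, plus strand), the squalene epoxidase and a rate-limiting step, ranged from 1.15 to 2.72 CPM in Ctrl with a median of 1.99 CPM, and from 0.819 to 2.24 CPM in Doxo with a median of 1.27 CPM. A total of 6 Doxo hearts were below every Ctrl heart. Its log2 fold change was -0.55 (SE 0.15, adjusted p = 0.00121, edgeR), just short of 1.5-fold.

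*Lss* (ENSMUSG00000033105, chr10:76531588-76557138, plus strand), which acts on the product of *Sqle*, ranged from 2.37 to 4.55 CPM in Ctrl with a median of 3.51 CPM, and from 3.07 to 14.97 CPM in Doxo with a median of 9.45 CPM. Of the 13 Doxo hearts, 12 were above every Ctrl heart, and the exception was replicate 6 at 3.07 CPM. The means were 3.68 ± 0.588 and 9.80 ± 3.72 CPM, a log2 fold change of 1.41 (SE 0.16, adjusted p = 1.52e-09). Without replicate 6 it was 1.49 (adjusted p = 3.59e-12, edgeR).

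*Dhcr7* (ENSMUSG00000058454, chr7:143823145-143848410, plus strand) ranged from 4.74 to 7.65 CPM in Ctrl with a median of 6.08 CPM, and from 0.643 to 5.21 CPM in Doxo with a median of 2.08 CPM. In 12 of the 13 Doxo hearts the value was below every Ctrl heart, and again the exception was replicate 6, the highest at 5.21 CPM. The means were 6.28 ± 0.859 and 2.38 ± 1.36 CPM, a log2 fold change of -1.39 (SE 0.19, adjusted p = 6.94e-08). Without replicate 6 it was -1.54 (adjusted p = 1.10e-09, edgeR).

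**Figure D1:**
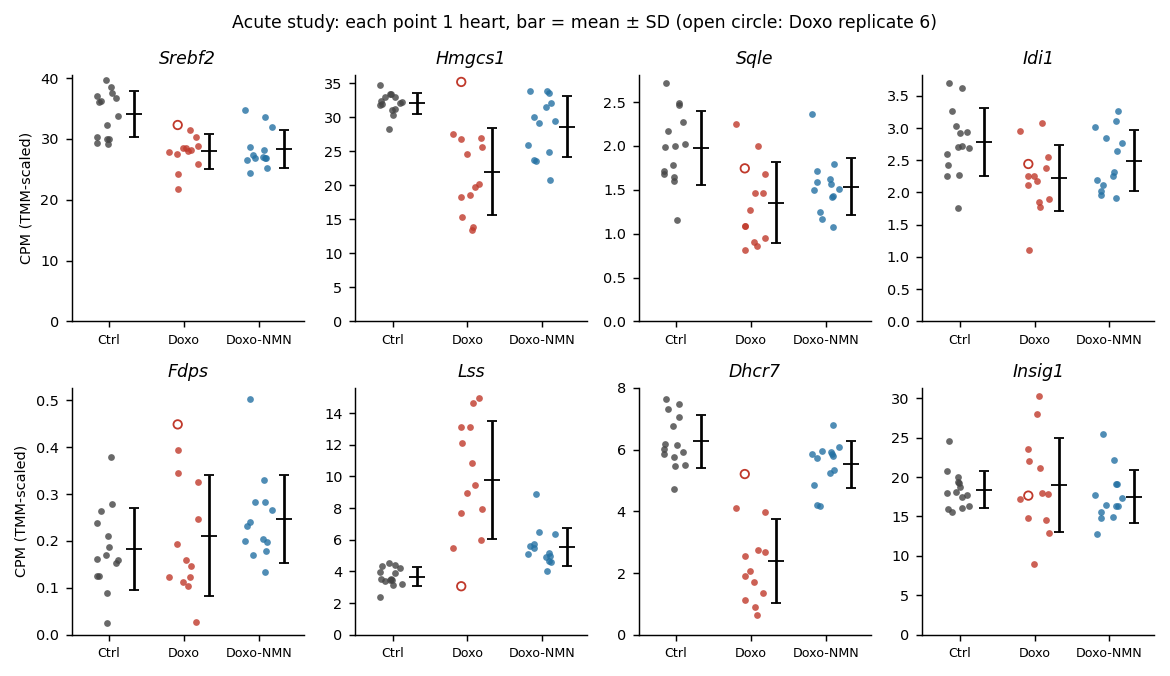
CPM of the 8 genes (vertical axes, each starting at 0) in every heart of the acute study, by group on the horizontal axes, with 1 point per heart, bars for mean ± SD and an open circle for Doxo replicate 6. *Lss* rose from 3.68 to 9.80 CPM and *Dhcr7* fell from 6.28 to 2.38 CPM in Doxo, with replicate 6 near the Ctrl hearts in both.

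Because the amount of atrial tissue differed between hearts (the summed atrial genes ranged from 46.2 to 5862 CPM in Ctrl and from 34.6 to 2226 CPM in Doxo), the comparison was repeated within hearts at or above 100 CPM of the atrial gene *Myl4* (8 Ctrl, 5 Doxo) and within hearts below it (6 Ctrl, 8 Doxo). The *Dhcr7* log2 fold changes were -1.49 and -1.24, and those of *Lss* 1.52 and 1.40, all 4 called. *Idi1* passed adjusted p under 0.05 on neither side of the split (adjusted p = 0.126 and 0.152, edgeR), and *Srebf2* and *Sqle* did not pass in the hearts below 100 CPM (adjusted p = 0.134 and 0.0598).

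The second comparison asked what NMN added to Doxo, and it uses the same Doxo hearts as the first. The genes that had been called under Doxo alone were also called here, with the opposite sign: *Dhcr7* rose 2.32-fold and *Lss* fell to 0.566 of its Doxo mean. They were 2 of the 7 tested genes, against 17.1% of all genes. At adjusted p under 0.05 alone *Hmgcs1* joined them, 3 of 7 against 53% of all genes, and the median log2 fold change of the 7 was 0.16.

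*Dhcr7* ranged from 4.16 to 6.79 CPM in Doxo-NMN hearts with a median of 5.80 CPM. Among the 13 hearts, 10 were above every Doxo heart, and all 13 were above the Doxo median. The mean was 5.52 ± 0.751 CPM, and the log2 fold change from Doxo was 1.20 (SE 0.19, adjusted p = 5.66e-06) or 1.35 without Doxo replicate 6. Doxo-NMN replicate 10, the heart nearest to Doxo, had the lowest value, and without it the log2 fold change was 1.23 (adjusted p = 3.21e-06, edgeR). Against Ctrl, 11 of the 13 hearts lay within the Ctrl range, and the log2 fold change was -0.19 (95% interval -0.56 to 0.19, adjusted p = 0.479, edgeR).

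*Lss* ranged from 4.02 to 8.90 CPM in Doxo-NMN hearts with a median of 5.19 CPM, and all 13 hearts were below the Doxo median. The mean was 5.55 ± 1.22 CPM, and the log2 fold change from Doxo was -0.82 (SE 0.16, adjusted p = 6.65e-05, edgeR) or -0.90 without Doxo replicate 6. The highest value, 8.90 CPM, was that of replicate 10, without which the log2 fold change was -0.89 (adjusted p = 1.37e-05, edgeR). Of the 13 hearts, 12 were still above every Ctrl heart. In the third comparison, Doxo-NMN against Ctrl, *Lss* had a log2 fold change of 0.59 (SE 0.16, adjusted p = 0.00485, edgeR) and was the only one of the 7 genes called, against 7.11% of all genes. That value sat just past 1.5-fold, and leaving out 1 heart at a time ended the call in 8 of 40 cases (Ctrl replicates 1, 2, 3, 12 and 13, and Doxo-NMN replicates 4, 7 and 10) with log2 values of 0.52 to 0.63 throughout. Without Doxo-NMN replicate 10 it was 0.52 (adjusted p = 0.0135, edgeR), and no sterol gene was called. Within the *Myl4* split it was 0.55 and 0.70 (adjusted p = 0.0756 and 0.0634), called in neither.

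*Hmgcs1* ranged from 20.8 to 33.9 CPM in Doxo-NMN hearts with a median of 29.4 CPM, and all 13 hearts were above the Doxo median. The log2 fold change from Doxo was 0.38 (SE 0.11, adjusted p = 0.00282), or 0.45 (adjusted p = 0.000142, edgeR) without Doxo replicate 6. In 12 alternative fits it was 0.32 to 0.52, and its adjusted p was not always under 0.05. *Srebf2* gave a different picture. It ranged from 24.5 to 34.8 CPM, with 10 of 13 Doxo-NMN hearts below every Ctrl heart, the same number as under Doxo alone. The log2 fold change from Doxo was 0.02 (95% interval -0.10 to 0.15, adjusted p = 0.794) and that from Ctrl -0.26 (SE 0.06, adjusted p = 0.00136, edgeR). Over 12 alternative fits the *Srebf2* value from Ctrl ran from -0.31 to -0.14, and its adjusted p was not always under 0.05. *Srebf2* and *Lss* were the 2 of 7 genes at adjusted p under 0.05 in Doxo-NMN against Ctrl, against 26% of all genes. For *Sqle*, *Idi1* and *Insig1* the log2 fold changes from Doxo were 0.18 (95% interval -0.12 to 0.48), 0.16 (-0.08 to 0.41) and -0.11 (-0.36 to 0.13), and from Ctrl -0.37, -0.16 and -0.07 (adjusted p = 0.0566, 0.343 and 0.701, edgeR). *Fdps* averaged 0.248 ± 0.0938 CPM.

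**Figure D2:**
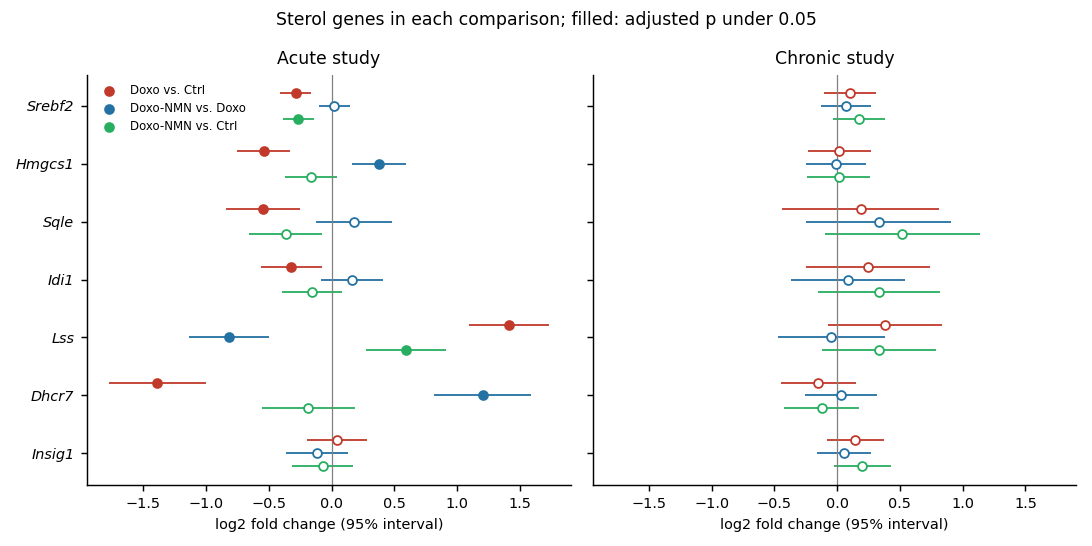
Log2 fold changes of the 7 tested genes with 95% intervals (horizontal axes) in the acute and chronic studies, for Doxo against Ctrl (red), Doxo-NMN against Doxo (blue) and Doxo-NMN against Ctrl (green), filled where adjusted p was under 0.05. In the acute study *Lss* (1.41 and -0.82) and *Dhcr7* (-1.39 and 1.20) lie on opposite sides of 0 in the first 2 comparisons, and in the chronic study no symbol is filled.

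The genes were also compared with each other, heart by heart, over 21 pairs of log2 CPM within each acute group, because changes of group means do not show whether the same hearts were affected. Within the 13 Doxo hearts 4 pairs passed the adjustment over the 21 by both coefficients (permutation tests, 100000 resamples). The share of pairs among all genes that would pass was not computed, so such counts are not read as particular to the sterol genes. *Hmgcs1* and *Dhcr7* went together most closely, with Pearson's r = 0.926 and Spearman's rho = 0.901 (adjusted permutation p = 4.2e-04 and 0.00105). *Lss* went against both, with r = -0.842 and rho = -0.813 to *Hmgcs1* (adjusted permutation p = 0.00154 and 0.00682) and r = -0.851 and rho = -0.852 to *Dhcr7* (0.00147 and 0.00343). *Sqle* and *Idi1* had r = 0.788 and rho = 0.846 (adjusted permutation p = 0.00189 and 0.00343). Leaving out the 2 hearts farthest from the median of the first gene gave r = 0.888, -0.854, -0.790 and 0.668 in the same order, and leaving out replicate 6 gave 0.905, -0.784, -0.834 and 0.786.

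Fewer pairs passed in the other acute groups. Within the 14 Ctrl hearts only *Idi1* with *Dhcr7* passed (r = 0.876, rho = 0.815, adjusted permutation p = 8.4e-04 and 0.0122, r = 0.748 without the 2 farthest hearts), and within the 13 Doxo-NMN hearts no pair of 21 did. Whether the groups differ in these correlations was not tested. The median r over the 21 pairs was 0.19 in Ctrl, 0.05 in Doxo and 0.00 in Doxo-NMN (-0.0007158).

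The genes were also set against how far each Doxo heart had moved over the rest of the transcriptome. Against the position of the 13 Doxo hearts on the axis described above, *Dhcr7* had r = -0.864 and rho = -0.885 (adjusted permutation p = 6.8e-04 and 0.00104, over 8 relations) and *Hmgcs1* r = -0.827 and rho = -0.808 (6.8e-04 and 0.005). *Lss* had r = 0.854 and rho = 0.626 (adjusted permutation p = 0.00107 and 0.033), *Sqle* r = -0.662 and rho = -0.676 (0.0161 and 0.0215), and *Idi1* r = -0.619 and rho = -0.791 (0.0466 and 0.00576). *Srebf2* (r = -0.286, rho = 0.027) and *Insig1* (r = 0.225, rho = 0.341) did not pass (adjusted permutation p of 0.291 or more). The eighth relation, that of *Nadsyn1*, the neighbour of *Dhcr7* described below, had r = -0.791 and rho = -0.753 (adjusted permutation p = 0.00154 and 0.00832). Such relations were common, since 38.3% of the 14240 genes tested had an r of at least 0.619 in size to the same axis, the smallest among the 5 sterol genes that passed. Without the 2 hearts farthest from the median position, r was -0.877 for *Dhcr7*, -0.767 for *Hmgcs1*, 0.531 for *Lss*, -0.529 for *Sqle* and -0.740 for *Idi1*. All these values come from the same libraries, so depth and composition of a library enter both sides.

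**Figure D3:**
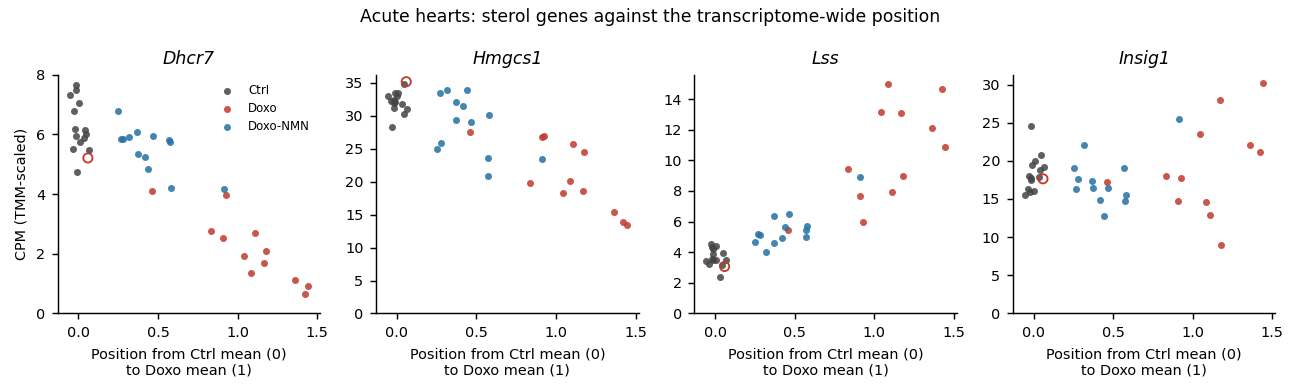
CPM of 4 of the genes (vertical axes from 0) against each acute heart's position between the Ctrl mean (0) and the Doxo mean (1) over 4435 other genes (horizontal axes), with 1 point per heart in the colour of its group and an open circle for Doxo replicate 6. In Doxo hearts *Dhcr7* (r = -0.864) and *Hmgcs1* (r = -0.827) go down and *Lss* (r = 0.854) goes up along the axis, and *Insig1* (r = 0.225) spreads without an order that passed the test.

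Along the rest of the synthesis pathway, 13 further enzymes were described, and 2 were called in Doxo against Ctrl, where 30.1% of all genes were. *Sc5d*, which acts just before *Dhcr7*, fell (log2 fold change -0.64, adjusted p = 3.30e-07), and *Fdft1*, the squalene synthase upstream of *Sqle* and *Lss*, rose (0.72, adjusted p = 6.00e-06, edgeR). At adjusted p under 0.05 alone 6 of the 13 were lower and 2 higher, with a median of -0.13, where 68.1% of all genes passed. *Cyp51* (-0.29) and *Msmo1* (-0.34), which demethylate lanosterol and its products, were among the lower ones. In Doxo-NMN against Doxo, none of the 13 was called, and *Cyp51* (0.24), *Msmo1* (0.33), *Sc5d* (0.49, adjusted p = 1.02e-04) and *Fdft1* (-0.43, adjusted p = 0.00581, edgeR) stayed under 1.5-fold. At adjusted p under 0.05 alone 7 were higher and 2 lower there, where 53% of all genes passed. None of the 13 was called in Doxo-NMN against Ctrl, where 1 was higher and 1 lower at adjusted p under 0.05 alone, against 26% of all genes.

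**Figure D4:**
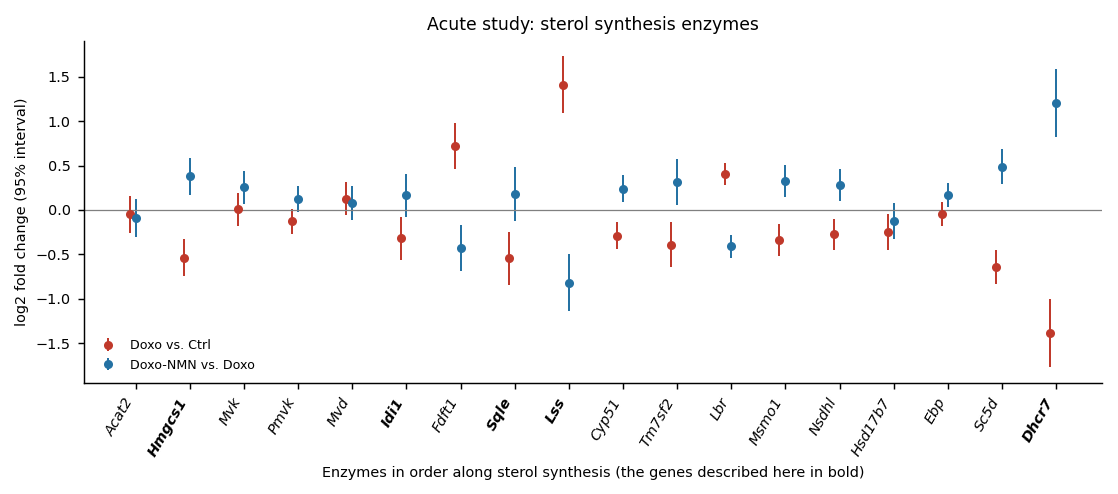
Log2 fold changes with 95% intervals (vertical axis) of 18 sterol synthesis enzymes of the acute study, ordered along the pathway on the horizontal axis (Fdps was not tested), for Doxo against Ctrl (red) and Doxo-NMN against Doxo (blue), with the genes described here in bold. *Fdft1* (0.72) and *Lss* (1.41), on either side of *Sqle* (-0.55), lie above 0 under Doxo. The last pair, *Sc5d* (-0.64) and *Dhcr7* (-1.39), lies below.

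Of 9 genes for SREBP processing and sterol-regulated protein degradation, 2 were called in Doxo against Ctrl (30.1% of all genes), both lower: *Erlin1* (-0.78) and *Erlin2* (-0.60), which form a complex of the endoplasmic reticulum that takes part in protein degradation. The call of *Erlin2* was lost without Doxo replicate 4 (-0.57). *Scap*, the escort of SREBP-2, had a log2 fold change of 0.35 and *Insig2*, the second INSIG, of -0.17, both at adjusted p under 0.05 (8.92e-06 and 0.00264, edgeR) and under 1.5-fold. None of the 9 was called in Doxo-NMN against Doxo. *Scap* kept its difference from Ctrl with NMN (0.34, adjusted p = 1.16e-04, edgeR), like *Srebf2* in the same fit.

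Uptake and endosomal transport were described by 11 genes. In Doxo hearts 2 of them rose, against 30.1% of all genes called: *Mylip* (1.68), a sterol-induced ubiquitin ligase that limits lipoprotein uptake, and the HDL receptor *Scarb1* (0.78, or 0.58 and no longer called without Doxo replicate 5). With NMN, *Scarb1* (-0.96) and *Mylip* (-0.71) fell relative to Doxo, and *Mylip* (0.96) was still higher than Ctrl and *Stard4*, a sterol carrier, lower (-0.64).

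Of 12 genes for efflux, LXR signalling and esterification, 5 rose and 1 fell in Doxo hearts, against 30.1% of all genes called, with a median of 0.48. Among those that rose were *Abca1* (0.78), the cholesterol exporter and LXR target, *Cyp27a1* (0.59) and *Ch25h* (3.12), which make oxysterols, and *Soat2* (3.25), which esterifies cholesterol. The 2 largest changes started from few counts. *Soat2* had a median of 5 counts in Ctrl (0 to 16) and 31 in Doxo. *Ch25h* had a median of 14 counts in Ctrl and 80 in Doxo, where it ranged from 5 to 295. *Cyp27a1* sat at the fold threshold and its call was lost in 15 of 40 cases of leaving out 1 heart. *Ch25h* (-2.81) and *Soat2* (-2.14) fell in Doxo-NMN relative to Doxo. In Doxo-NMN against Ctrl 2 of the 12 were called, both higher, against 7.11% of all genes. *Soat2* (1.11) was among them, a call lost in 16 of 40 such cases. The isoprenoid branch after *Fdps* had 1 of 10 tested genes called in Doxo against Ctrl (30.1% of all genes), *Pdss2* of coenzyme Q synthesis (-0.59). That call was lost in 10 of 40 such cases. Of 15 genes of fatty acid synthesis, the SREBP-1 arm, 4 were called lower, among them *Scd1* (-1.58), *Pnpla3* (-1.18) and *Gpam* (-0.78), and 1 higher, again beside 30.1% of all genes. The adipocyte genes went the same way in this comparison, with median sums of 21.5 CPM in Ctrl and 1.12 CPM in Doxo, and their part was not tested. The 1 higher gene, *Mid1ip1* (0.73), rested on Doxo replicate 13, the highest at 304 CPM, and was 0.27 (adjusted p = 0.0881, edgeR) without it. *Srebf1* itself, the regulator of that arm, had a log2 fold change of 0.28 (adjusted p = 0.00270) under Doxo and of 0.55 (adjusted p = 7.88e-06, edgeR) in Doxo-NMN against Ctrl, opposite in sign to *Srebf2* in both. Of 10 tested genes of fasting and PPAR-alpha signalling, 1 was called higher and 2 lower in Doxo against Ctrl (30.1% of all genes). Each of these calls was lost when single hearts were left out. *Acot1* (0.73), a thioesterase, had medians of 20.9 CPM in Ctrl and 21.2 CPM in Doxo, and was 0.43 (adjusted p = 0.122) without Doxo replicate 8 and 0.52 (adjusted p = 0.0818, edgeR) without Doxo replicate 13. *Angptl4* (-1.47) lost its call without Ctrl replicate 9, 11 or 13, and *Ucp3* (-1.11) in 23 of 40 cases. These lists were chosen with earlier results of these data known, so their counts are a description.

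*Dhcr7* was the only one of the 8 genes with a protein-coding neighbour starting in the opposite direction within 1000 bp. That neighbour is *Nadsyn1* (ENSMUSG00000031090, chr7:143795584-143822849, minus strand), the NAD+ synthetase, and the 2 starts lie 296 bp apart, so that the *Dhcr7* start region printed above lies between them. It was looked at after its values were known. *Nadsyn1* ranged from 3.61 to 5.06 CPM in Ctrl, from 2.29 to 4.59 CPM in Doxo and from 4.86 to 6.03 CPM in Doxo-NMN. All 13 Doxo-NMN hearts were above every Doxo heart, and 8 were above every Ctrl heart. Its log2 fold change was -0.36 (adjusted p = 2.13e-04) from Ctrl to Doxo, 0.67 (adjusted p = 3.78e-07, called) from Doxo to Doxo-NMN and 0.31 (adjusted p = 0.00508, edgeR) from Ctrl to Doxo-NMN. The corresponding values of *Dhcr7* were -1.39, 1.20 and -0.19, and the difference between both genes was not tested.

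The chronic study asked the same questions about repeated lower doses. No sterol gene was called, and none of the 7 tested genes reached an unadjusted p under 0.05 in any of the 3 comparisons, by edgeR. All genes gave few calls there too: 0.0602% in Doxo against Ctrl, 0% in Doxo-NMN against Doxo (0 of 14960, with 441 at unadjusted p under 0.05) and 0.0401% in Doxo-NMN against Ctrl. The medians of the 7 were 0.14, 0.05 and 0.20 on the log2 scale, and DESeq2 and every other alternative fit also called 0 of them in each comparison.

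*Dhcr7* had 9.20, 5.86, 9.69, 8.51 and 8.997 CPM in the 5 chronic Ctrl hearts. The 6 Doxo hearts ranged from 4.94 to 8.66 CPM with a median of 7.99 CPM, and the 6 Doxo-NMN hearts from 6.62 to 8.50 CPM with a median of 7.75 CPM. The lowest value was that of Doxo replicate 2, the only heart outside the Ctrl range. The log2 fold change of Doxo against Ctrl was -0.15 (95% interval -0.45 to 0.15, adjusted p = 0.807), or -0.05 (adjusted p = 0.999, edgeR) without that heart. *Lss* had 4.30, 4.50, 4.32, 5.21 and 4.87 CPM in Ctrl, 4.79 to 8.62 CPM with a median of 5.56 CPM in Doxo, and 3.97 to 9.35 CPM with a median of 5.28 CPM in Doxo-NMN. Of the 6 Doxo hearts, 4 were above every Ctrl heart, the highest again replicate 2. The log2 fold change of Doxo against Ctrl was 0.38 (95% interval -0.07 to 0.84, adjusted p = 0.680), or 0.26 (adjusted p = 0.999, edgeR) without replicate 2.

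*Hmgcs1* had 17.3, 24.99, 21.8, 19.5 and 22.4 CPM in chronic Ctrl hearts, and 5 of 6 Doxo hearts lay between 21.9 and 23.7 CPM, with replicate 2 below all of them at 14.3 CPM. It had a log2 fold change of 0.02 (95% interval -0.23 to 0.27), or 0.11 without replicate 2. *Sqle* likewise had 0.747 CPM in Doxo replicate 2, and 2.11 to 2.65 CPM in the other 5 Doxo hearts, against 1.19 to 2.18 CPM in Ctrl. *Srebf2* was lowest among the Doxo hearts in the same replicate (36.4 CPM, against 44.4 to 50.4 CPM in the others), with a Ctrl range of 34.3 to 51.6 CPM. *Insig1* and *Idi1* had log2 fold changes of 0.14 (95% interval -0.08 to 0.37) and 0.25 (-0.25 to 0.74), from medians of 395 and 28 counts per heart. For Doxo-NMN against Doxo the intervals of the 7 genes included 0, with values from -0.05 (*Lss*) to 0.33 (*Sqle*). *Fdps* had 2 to 12 counts per heart and was not tested.

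**Figure D5:**
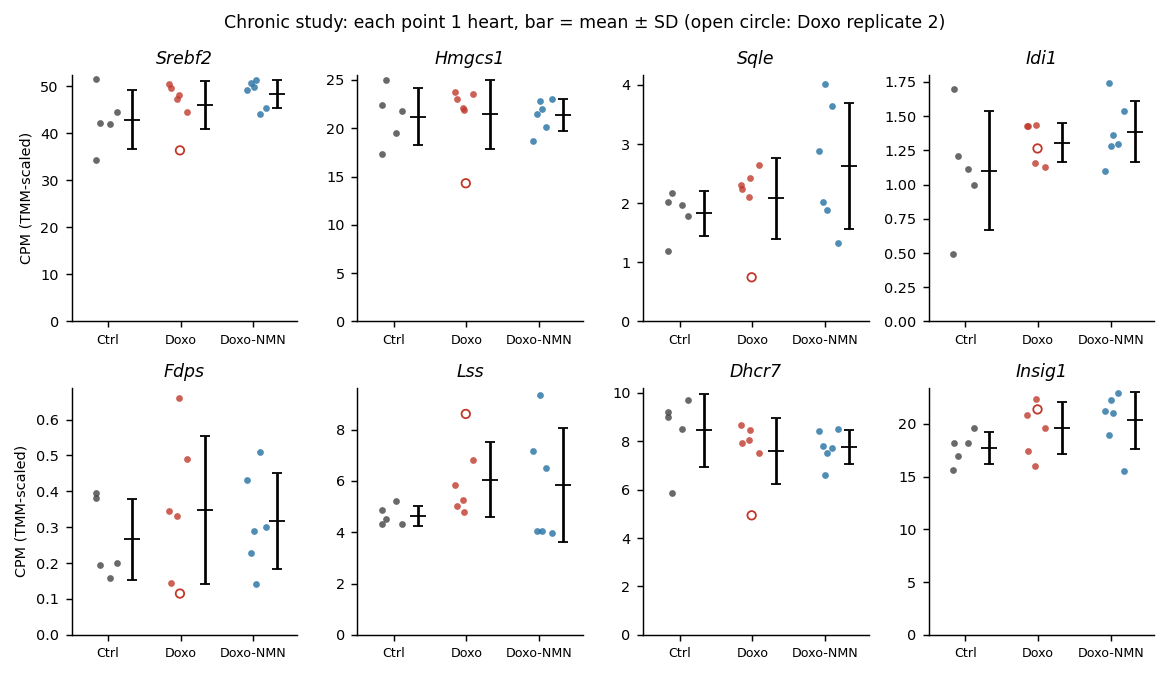
CPM of the 8 genes (vertical axes from 0) in every heart of the chronic study, by group on the horizontal axes, with 1 point per heart, bars for mean ± SD and an open circle for Doxo replicate 2. The groups overlap in every gene, and the open circle is the lowest Doxo point of *Dhcr7* (4.94 CPM) and *Hmgcs1* (14.3 CPM) and the highest of *Lss* (8.62 CPM).

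Whether the Doxo effect differed between the studies was tested directly, as the chronic minus the acute log2 fold change in 1 fit over 14965 genes, of which 19.3% were called at adjusted p under 0.05. By this test, in which *Fdps* also passed the filter on low counts, 4 of the 8 sterol genes were called: *Dhcr7* (1.24, SE 0.37, adjusted p = 0.0187), *Lss* (-1.02, SE 0.30, adjusted p = 0.0170), *Srebf2* (0.39, SE 0.12, adjusted p = 0.0217) and *Hmgcs1* (0.56, SE 0.20, adjusted p = 0.0433, edgeR). In each of these the chronic effect was nearer to 0 or of the other sign. *Sqle* (0.73, adjusted p = 0.0857), *Idi1* (0.57, 0.116), *Insig1* (0.11, 0.752) and *Fdps* (0.19, 0.842) did not pass. Without chronic Doxo replicate 2, *Sqle* passed as well (0.90, adjusted p = 0.0192, edgeR) and 5 genes were called. Without both Doxo hearts that stood apart, the same 5 genes were called, with 1.49 for *Dhcr7* and -1.22 for *Lss*, and 5325 of all genes in place of 2887. The call of *Hmgcs1* was lost in 25 of 38 cases of leaving out 1 heart, and without chronic Ctrl replicate 1 both *Hmgcs1* (0.50, adjusted p = 0.0911) and *Srebf2* (0.32, adjusted p = 0.0577, edgeR) were lost. Only Ctrl and Doxo hearts entered this test. Dose schedule, vehicle, time, age, supplier, sequencing site, depth and the set of genes counted all differed between the studies and cannot be told apart.

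As a description of which other genes behaved most like these, the mean correlation of each tested gene with the 7 was taken over all 40 acute hearts, on log2 CPM with each heart's group mean subtracted, and with no test. Among the 8 highest were *Bace2*, *Fam114a1*, *Dse*, *Tcaf1*, *Reck*, *Aff3* and *Prelp*, with means of 0.350 to 0.364, and none is in the lists above. Over the 17 chronic hearts the same means of these 7 were 0.134 to 0.290. The means of the sterol genes with each other ran from 0.248 for *Idi1* down to -0.154 for *Insig1* and -0.270 for *Lss* in acute hearts. Because the other genes were picked for the highest means of all genes tested, theirs cannot be compared with these.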

How the data were processed

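Heart RNA from 40 mice of the acute study and 17 of the chronic study was poly(A)-selected and sequenced. Reads were aligned by the authors with STAR (2.7.3a in the submitters' processing notes) against mm10, assigned to genes by featureCounts (2.0.0) and deposited as raw counts per gene, in a file for each study. How reads shared between loci and strand were handled, and the annotation behind each table, are not given in the sources used here. Of acute counts from 1 to 20, a median of 73.6% per heart were even, against 40.3% of chronic counts, so an alternative divided the acute counts by 2. Both studies' groups came from the labels, and no pair of libraries within a group held identical values or differed by sampling noise alone. Pairs of libraries from different groups were not compared in this way. Besides a replicate number, each heart's description line carries a number whose meaning is not given. Those numbers were not examined as blocks or pairs, and p-values measure the spread between these hearts.

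From the deposited counts, genes were filtered with edgeR's filterByExpr, scaled by TMM and fitted over all 3 groups of a study with edgeR's quasi-likelihood test (edgeR 4.0.16, limma 3.58.1, R 4.3.3), which was tested on simulated data first. Values are log2 fold changes with SE, and p-values are Benjamini-Hochberg adjusted over all genes tested. Calls needed adjusted p under 0.05 and, in the acute study only, 1.5-fold. The difference of Doxo effects between studies was a contrast in 1 fit over the genes of both tables. Alternatives were DESeq2 1.42.0, limma voom with sample weights, RLE factors, other low-count filters (none, or 10 counts in every heart), only the groups compared, robust dispersion, a replicate block, Myl7 as covariate, a split at 100 CPM of Myl4, other fold thresholds and leaving out each heart. Leaving out both Doxo hearts that stood apart, and each acute heart in turn for the genes of the other lists, was added after seeing the data.

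The members and gene lists were chosen with earlier results of these data known. Named were the 8 members, 9 further genes of the lists whatever their result (Mylip, Fdft1, Cyp51, Msmo1, Scap, Insig2, Abca1, Stard4, Srebf1), up to 4 called genes per list with the smallest p in acute Doxo vs. Ctrl, and genes among the 8 with the highest mean correlation to the members. Some genes these rules cover are not reported here and are left out of the counts of the lists. Exon lengths and coordinates are from GENCODE M21 (GRCm38), near-copies from blastn 2.17.0+ and start windows from RefSeq. The floor of 3 counts covers counting error only.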

Additional observations from a re-analysis of the deposited data

Results flagged for a closer look

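Chronic Doxo replicate 2 was far below the other 5 Doxo hearts of its group in 3 of the sterol genes: 14.3 CPM of Hmgcs1, 0.747 CPM of Sqle and 4.94 CPM of Dhcr7. Each gap to the nearest heart was 0.810, 0.717 and 0.689 of the group's whole range, past the limit of 0.625 for 6 hearts. Chance alone gives such a heart in about 1 in 20 groups, and 24 groups were looked at. The same heart had the highest Lss of its group (8.62 CPM), lay at 0.667 on the axis of the acute Doxo effect and had the fewest counts of red blood cell genes (16.2 CPM), so its sterol genes were not the only ones that stood apart. The reason was not tested.

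The effect of Doxo differed between the studies in 4 genes by the test of the difference itself (edgeR, chronic minus acute, on the log2 scale): Dhcr7 by 1.24, Lss by -1.02, Srebf2 by 0.39 and Hmgcs1 by 0.56. Regimen, vehicle, age, supplier, sequencing site, depth and the set of genes counted changed together between the studies and cannot be told apart.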

How the results depend on the processing

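The counts of called sterol genes moved with the fold threshold, the tool and single hearts. In acute Doxo vs. Ctrl (2 called) limma voom called 4 (Hmgcs1 and Sqle besides Dhcr7 and Lss), the rule without a fold threshold 6, and leaving out 1 heart 2 to 3, with 3 without Doxo replicate 6. In Doxo-NMN vs. Doxo (2 called) a 2-fold threshold left 1, and leaving out 1 heart 2 throughout. In Doxo-NMN vs. Ctrl the 1 call, Lss, was lost (0 called) with a 2-fold threshold, at least 10 counts in every heart, limma voom, no low-count filter and on either side of the Myl4 split, the rule without a fold threshold called 2, and leaving out 1 heart gave 0 to 1. In the difference between studies (4 called) leaving out 1 heart gave 2 to 5, with 2 without chronic Ctrl replicate 1. Leaving out both Doxo hearts that stood apart gave 5, while all genes called rose from 2887 to 5325. The chronic comparisons called 0 in every alternative. Of 1969 values of single genes under the alternatives, 39 lost and 12 gained a call, 34 uncalled values changed sign and 0 called values did. The cause of these shifts was not tested.

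Whether replicate numbers pair the hearts was left undecided. Hearts of equal number correlated above 0.1 in 3, 8 and 7 of 13 acute pairs, and in 0 of 5, 2 of 5 and 2 of 6 chronic pairs. Hearts of unequal number were not compared, so these values have nothing to be judged against. The numbers in the description lines were not used. With the replicate block the counts were 2, 2 and 1 in the acute comparisons and 0 in the chronic ones, as without it. Low counts limit Fdps (1 to 22 counts per heart) and, in the chronic study, Idi1 (a median of 28 counts). Both genes have near-copies, and whether depth, low expression or reads shared with these copies set the counts was not tested.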

Other observations

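The hearts that stood apart over the rest of the transcriptome did so in some of the sterol genes. Acute Doxo replicate 6, which lay among the Ctrl hearts over the rest of the transcriptome, had 5.21 CPM of Dhcr7, 35.2 CPM of Hmgcs1 and 3.07 CPM of Lss, where the acute Ctrl means were 6.28, 32.1 and 3.68 CPM. Chronic Doxo replicate 2, which lay at 0.667 toward the acute Doxo mean, had 4.94, 14.3 and 8.62 CPM of the same genes, where the chronic Ctrl means were 8.45, 21.2 and 4.64 CPM. In other genes they lay inside their groups: acute Doxo replicate 6 had 1.74 CPM of Sqle, 2.44 of Idi1 and 17.6 of Insig1, and chronic Doxo replicate 2 had 1.26 CPM of Idi1 and 21.4 of Insig1. Acute Doxo-NMN replicate 10 had the lowest Dhcr7 (4.16 CPM) and the highest Lss (8.90 CPM) and Insig1 (25.4 CPM) of its group. These are values of single hearts chosen for their position and carry no test.

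Nadsyn1, the NAD+ synthetase that shares its start region with Dhcr7, averaged 5.29 ± 0.388 CPM in acute Doxo-NMN hearts, and its chronic log2 fold changes were -0.13, 0.10 and -0.03 in the 3 comparisons, none called. The difference of its Doxo effect between the studies was 0.24 (adjusted p = 0.342, edgeR), where that of Dhcr7 was 1.24.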
